A study of Homo sapiens with 14 samples.

Results

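The genes examined here are 10 regulators of the melanocyte lineage and of the neural crest from which it derives: MITF, TFEB, TFE3, SOX10, SOX9, PAX3, TFAP2A, LEF1, NGFR and CDH19. They were chosen by name, and every probe that the platform annotation assigns to one of these symbols was taken, which gave 21 of the 47322 probes. Of the 10 genes, 9 had a probe above background on at least 2 arrays and were tested among 12742 genes. SOX9 was the exception. All cells were WM9, an established human melanoma line. The control group received the solvent DMSO for 96 h, and PLX4720, which blocks the BRAF kinase, was given at 10 µM to 6 groups of cells that were collected after 12, 24, 48, 60, 72 or 96 h. Each of the 7 groups had 2 arrays, which the series' design text calls biological replicates, and nothing further is stated about separate cultures. No untreated or DMSO cells were collected at 12 to 72 h, so hours in culture and drug cannot be told apart in the comparisons of those times with DMSO. The same holds for comparisons of the treated times with each other.

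MITF is a basic helix-loop-helix leucine zipper factor that binds short E-box sequences and directs pigment cell development, pigment enzyme genes and survival genes. TFEB and TFE3 are its close relatives, known for activating lysosomal genes and for being held in the cytoplasm by nutrient signalling. In melanocytes the MITF promoter used by the lineage is activated by SOX10 and PAX3, by LEF1 acting with beta-catenin, and by CREB downstream of the melanocortin receptor. TFAP2A, an AP-2 factor of the neural crest, binds many pigment cell enhancers together with MITF. NGFR, the low-affinity neurotrophin receptor also called CD271, and CDH19, a cadherin of Schwann cell precursors, mark less differentiated neural crest states of melanoma. SOX9 is the SOX factor that such cells often carry in place of SOX10.

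Promoter sequences were taken from a RefSeq table for GRCh38.p14, which held 12 windows for 7 of the 10 genes. SOX10, SOX9 and NGFR were not matched. The 250 bases before the most downstream start of MITF are shown because they form the melanocyte promoter, with the LEF1-type motif CTTTGAT and the CREB-type motif TGACGTCA in capitals. The window lies at chr3:69936342-69936591 on the forward strand.
MITF: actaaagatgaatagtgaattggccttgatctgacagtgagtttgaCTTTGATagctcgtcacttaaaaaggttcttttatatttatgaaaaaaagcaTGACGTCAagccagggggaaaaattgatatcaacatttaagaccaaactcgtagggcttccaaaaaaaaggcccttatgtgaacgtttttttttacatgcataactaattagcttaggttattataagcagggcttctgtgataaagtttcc
CTTTGAT began 204 bases and TGACGTCA 152 bases before the start, and these were the only matches to either motif, on either strand, among the 12 windows of the members. Over all 35116 promoter windows of this length, 2.26% held CTTTGAT and 1.65% held TGACGTCA. The E-boxes CATGTG and CACGTG were in none of the 12 windows, where 9.42% and 6.34% of all windows held them. The AP-2 motif GCCNNNGGC was in 1 of the 12, a TFEB window, and in 19.8% of all windows.

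Promoters of 4 genes downstream of MITF and TFEB are shown beside it, chosen because they hold an E-box and their transcripts rose at 96 h. Capitals mark CATGTG, which reads CACATG on the other strand, in TYRP1 and GPNMB, and CACGTG in CTSA and MCOLN1. TYRP1 encodes a melanin-synthesis enzyme, GPNMB a glycoprotein of melanosomes and lysosomes, CTSA the protease cathepsin A and MCOLN1 a lysosomal calcium channel. The forward-strand windows are chr9:12693135-12693384, chr7:23246525-23246774, chr20:45891085-45891334 and chr19:7522374-7522623, in that order.
TYRP1: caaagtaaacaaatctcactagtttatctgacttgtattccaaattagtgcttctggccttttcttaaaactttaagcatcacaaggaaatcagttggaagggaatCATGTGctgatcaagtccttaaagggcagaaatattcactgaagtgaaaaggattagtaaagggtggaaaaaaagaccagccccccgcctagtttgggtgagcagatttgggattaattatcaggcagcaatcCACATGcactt
GPNMB: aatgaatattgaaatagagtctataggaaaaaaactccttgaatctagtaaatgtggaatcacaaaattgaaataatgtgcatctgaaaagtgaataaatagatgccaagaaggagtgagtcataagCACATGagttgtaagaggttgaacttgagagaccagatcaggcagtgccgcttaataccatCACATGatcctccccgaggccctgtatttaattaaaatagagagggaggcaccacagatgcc
CTSA: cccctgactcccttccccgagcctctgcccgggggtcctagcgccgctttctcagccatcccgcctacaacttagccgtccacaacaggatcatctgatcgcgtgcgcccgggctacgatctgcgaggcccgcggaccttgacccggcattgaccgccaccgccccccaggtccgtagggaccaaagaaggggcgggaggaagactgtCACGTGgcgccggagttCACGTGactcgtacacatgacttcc
MCOLN1: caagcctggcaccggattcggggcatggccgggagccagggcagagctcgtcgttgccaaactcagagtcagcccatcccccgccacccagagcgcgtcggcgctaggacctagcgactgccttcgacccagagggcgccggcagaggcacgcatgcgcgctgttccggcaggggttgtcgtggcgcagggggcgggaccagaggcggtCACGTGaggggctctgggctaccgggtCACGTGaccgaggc

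Levels are given as normalized log2 signals, and set against each other only within a probe. The DMSO arrays stood apart from the rest. Their median raw signals were 366 and 370 against 232 to 316 on the treated arrays, and replicate differences had an SD over all genes of 0.559 in DMSO and of 0.301 to 0.348 in the treated groups. Values with 1 DMSO array left out are therefore given wherever they change a call of a member. The melanoma markers S100A1, MITF and SOX10 were above background on all 14 arrays, PMEL on 12, S100B on 9, MLANA on 7 and TYR on 6. Of the markers of other cell types, 3 of 5 keratinocyte genes with a probe, 3 of 6 endothelial genes and 2 of 6 leukocyte genes were above background on no array, among them KRT1, KRT5, CDH5, VWF and PTPRC. KRT10, CD2 and CD68 were above background on all 14, CD68 with raw signals of 9139 to 29092, and KDR was on 10, CD14 on 9 and LYZ on 5. COL1A2, DCN and LUM, of the fibroblast list, were above background on all 14 while COL1A1, COL3A1 and PDGFRA were on none. Over the 8 fibroblast genes the summed linear normalized level was 13824 to 16235 in DMSO and 6165 to 9298 under PLX4720. The brightest of them, COL1A2, had a mean log2 signal of 13.69 in DMSO and 12.87 at 96 h, where LUM had 9.38 and 9.20 and DCN 7.94 and 8.25. Over the 7 melanoma markers the sum was 14920 to 21213 in DMSO and 17458 to 34714 under PLX4720. The array titles name only WM9 cells, and whether any other cells were present was not tested.

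**Figure D1:**
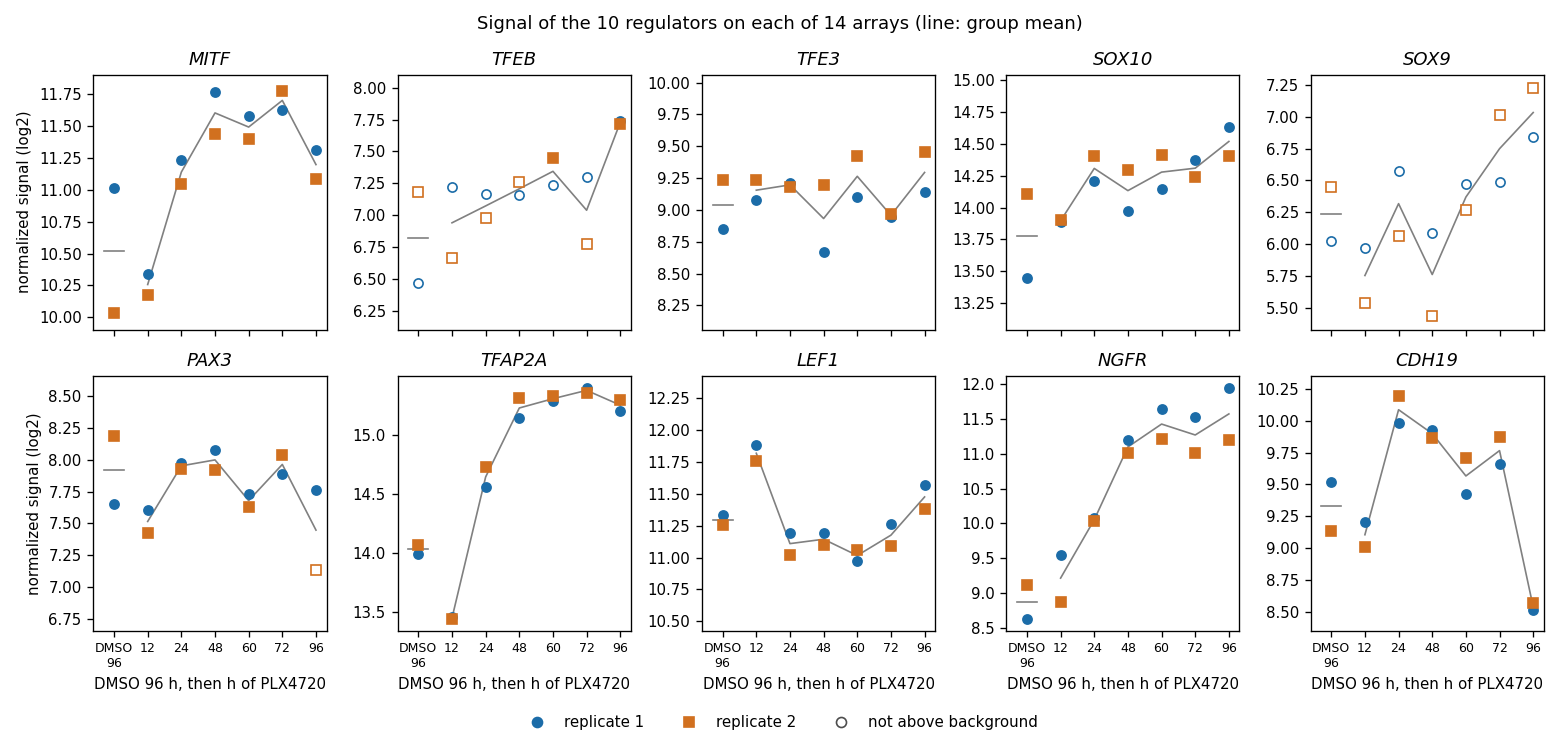
Normalized log2 signal (vertical axis) of each regulator on the 14 arrays, with DMSO at 96 h first and then hours of PLX4720. Circles are replicate 1, squares replicate 2, open symbols arrays where the probe was not above background, and lines the group means. TFAP2A and NGFR climb between 12 and 48 h, MITF is lowest at 12 h, and CDH19 is lowest at 96 h.

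On its brightest probe, MITF was low at 12 h and higher from 24 h onward. Over 12, 24, 48, 60, 72 and 96 h, replicate 1 of probe ILMN_2304186, the brightest of 3, read 10.34, 11.23, 11.77, 11.58, 11.63 and 11.31. Replicate 2 read 10.18, 11.05, 11.44, 11.40, 11.78 and 11.08 at the same times. The DMSO arrays read 11.01 and 10.03, so that 1 of them lay near the 24 h arrays and the other below the 12 h arrays. Among treated cells MITF was 1.92-fold higher at 96 h than at 12 h (log2 0.94, SE 0.26, n = 2 arrays a group here and throughout, limma adjusted p = 0.0165). This call was lost in 4 of 25 alternatives. The step from 12 to 24 h was 1.84-fold (limma adjusted p = 0.0487), and that call was lost in 14 of 25 alternatives, with adjusted p up to 0.227. All arrays of the higher group lay above those of the lower in both comparisons.

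Against DMSO, MITF was 2.12-fold higher at 48 h (log2 1.08, limma adjusted p = 0.00915), 1.96-fold at 60 h (0.0163) and 2.27-fold at 72 h (0.00499). At 12 h (-0.27, limma adjusted p = 0.545), at 24 h (0.62, 0.118) and at 96 h (0.68, 0.0707) the difference did not pass. Each of these values depended on which DMSO array was kept. Without DMSO replicate 1 the log2 values were 1.57 at 48 h, 1.46 at 60 h and 1.67 at 72 h, and without replicate 2 they were 0.59 (limma adjusted p = 0.0625), 0.48 (0.107) and 0.69 (0.0317), so that the 48 and 60 h calls were lost. At 24 h the value was 1.11 without replicate 1, which passed (limma adjusted p = 0.00276), and 0.13 without replicate 2. Without DMSO replicate 1 the value at 96 h was 1.17 (limma adjusted p = 0.00168), and without replicate 2 it was 0.18. At 12 h the corresponding values were 0.23 and -0.76, the second of which passed (limma adjusted p = 0.0238). With median scaling in place of quantile normalization, MITF did not pass at 48, 60 or 72 h (limma adjusted p = 0.144, 0.278 and 0.112) or at 96 h against 12 h (0.175). The second probe of MITF, annotated to another of its transcripts, was dimmer and above background on 13 arrays. It was higher than DMSO at 24 h (log2 1.05, SE 0.19, limma adjusted p = 0.00275), 48 h (1.01), 60 h (0.85), 72 h (1.10) and 96 h (0.67, 0.0233), and its difference between 96 and 12 h was 0.22 (0.475). At 12 h the second probe had a mean log2 signal of 7.88, against 7.43 in DMSO. It did not differ among the treated times (limma F test, adjusted p = 0.125). The third probe was above background on no array.

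TFEB, the relative of MITF best known for lysosomal genes, was near the background. Its probe was above background on both arrays only at 96 h, with raw signals of 365 and 287, and otherwise on 1 array of the 60 h group. TFEB thus met the filter for testing only through the 60 and 96 h groups, where its means were highest. Its calls at 96 h are not independent of that filter. It was called higher at 96 h than in DMSO, by at least 1.32-fold (log2 7.73 against 6.82, limma adjusted p = 0.0196), and than at 12 h, by at least 1.33-fold (log2 6.94 at 12 h, 0.0369). Without DMSO replicate 1 the first of these did not pass (limma adjusted p = 0.155), and without replicate 2 the 60 h group passed too (0.0303). The second was lost in 8 of 24 alternatives. TFE3, which shares most of the TFEB binding sites, was above background on all 14 arrays between 8.67 and 9.45. Its differences from DMSO ran from -0.11 to 0.25 (SE 0.22), and none passed in the main comparison or in the 24 alternatives. The groups overlapped at every time.

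SOX10 is the SOX factor that melanocytes need throughout life. Its probe read 13.45 and 14.11 in DMSO. Over the 6 treated times, in order, replicate 1 read 13.89, 14.21, 13.97, 14.14, 14.38 and 14.64, and replicate 2 read 13.90, 14.41, 14.30, 14.41, 14.24 and 14.40. With all arrays only the 96 h group passed against DMSO, at 1.67-fold higher (log2 0.74, SE 0.22, limma adjusted p = 0.0241), and every array there lay above both DMSO arrays. The value was 0.41 without DMSO replicate 1 (limma adjusted p = 0.174), 1.07 without replicate 2 and 0.26 with median scaling (0.439). Without DMSO replicate 2, the higher of the pair, the log2 values of SOX10 were 0.86 at 24 h, 0.68 at 48 h, 0.83 at 60 h and 0.86 at 72 h. Without replicate 1 those times lay between 0.02 and 0.20. Between 96 and 12 h of PLX4720 the difference was 0.62 (limma adjusted p = 0.0521), and with the replicate number as a block among the treated arrays the same difference passed (0.00865). SOX9 was not well above background on any array, with raw signals of 175 to 313, and was not tested.

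PAX3, the paired-box factor that acts with SOX10 on the MITF promoter, had no difference from DMSO, or between 96 and 12 h, that passed with all arrays. Its brightest probe read 7.65 and 8.18 in DMSO and 7.13 to 8.07 on the treated arrays, close to background, and differences from DMSO ran from -0.47 at 96 h (limma adjusted p = 0.140) to 0.08 at 48 h (SE 0.23). At 96 h it passed without DMSO replicate 1 (log2 -0.74, limma adjusted p = 0.0409) and without replicate 1 of the 96 h group (-0.78, 0.0413). Of the 3 other PAX3 probes, 1 was above background on 5 arrays, 1 on 2 and 1 on none. No DMSO array was above background for any of these 3.

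TFAP2A moved in both directions. Its brightest probe, ILMN_1765574, read 13.996 and 14.07 in DMSO and 13.46 and 13.44 at 12 h. From 24 to 96 h replicate 1 read 14.56, 15.14, 15.29, 15.40 and 15.21, and replicate 2 read 14.73, 15.31, 15.33, 15.35 and 15.30. The groups did not overlap with DMSO at any time. At 12 h it was lower than DMSO (log2 -0.58, SE 0.16, limma adjusted p = 0.0214), and this call was lost in 5 of 24 alternatives. From 24 h it was higher, by 1.53-fold at 24 h (limma adjusted p = 0.0145), 2.29-fold at 48 h (0.000124), 2.54-fold at 72 h (3.86e-05) and 2.33-fold at 96 h (8.05e-05). With median scaling the 24 h value fell to 0.21 (limma adjusted p = 0.521).

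Within the treated cells TFAP2A was 3.49-fold higher at 96 h than at 12 h (log2 1.80, limma adjusted p = 2.55e-06). It rose 2.29-fold from 12 to 24 h (limma adjusted p = 0.000235) and by a log2 of 0.58 from 24 to 48 h (0.0473), and the second step was lost in 15 of 25 alternatives. A second, less bright TFAP2A probe had raw signals of 5016 and 4010 in DMSO, 2262 and 1677 at 12 h, and 10181 and 8012 at 96 h. Its rise against DMSO was larger, at log2 2.23 at 72 h (limma adjusted p = 1.49e-06) and 2.03 at 96 h (3.04e-06), and its value at 12 h was -0.53 (0.0511). The brightest probe reached raw signals of 42306, with array maxima of 65685 to 72790. Whether the brighter probe is compressed near the top of the scale was not tested.

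LEF1, the transcription factor of the Wnt pathway that acts on the MITF promoter, ran the other way in the first day. Its brightest probe read 11.34 and 11.26 in DMSO, 11.88 and 11.76 at 12 h, and 11.20 and 11.02 at 24 h. From 48 to 96 h it lay between 10.97 and 11.57. The 12 h arrays were the highest of the 14. The rise at 12 h against DMSO was 1.44-fold (log2 0.52, SE 0.16, limma adjusted p = 0.0437) and was lost in 16 of 24 alternatives, among them the one without DMSO replicate 2 (log2 0.48). LEF1 then fell 1.64-fold from 12 to 24 h (log2 -0.71, limma adjusted p = 0.0132, lost in 4 of 25), and no later time differed from DMSO beyond the threshold. The second LEF1 probe gave 0.69 at 12 h (limma adjusted p = 0.0241) and -0.96 from 12 to 24 h (0.00530). At 96 h against 12 h LEF1 was at -0.34 (limma adjusted p = 0.138), or 0.0376 with the block among the treated arrays.

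NGFR showed the largest difference from DMSO at 96 h among the 9 tested members. It read 8.63 and 9.12 in DMSO. Over the 6 treated times, replicate 1 read 9.55, 10.07, 11.19, 11.64, 11.52 and 11.95, and replicate 2 read 8.88, 10.03, 11.00, 11.21, 11.02 and 11.19. The 12 h group overlapped with DMSO, and every array from 24 h onward lay above both groups. Against DMSO it was 1.27-fold higher at 12 h (limma adjusted p = 0.477), 2.27-fold at 24 h (log2 1.18, SE 0.30, 0.0134), 4.67-fold at 48 h (0.000146), 5.86-fold at 60 h, 5.26-fold at 72 h and 6.49-fold at 96 h (2.28e-05). The value at 96 h against 12 h was 5.11-fold (limma adjusted p = 6.63e-05). The calls from 48 to 96 h and at 96 against 12 h held in every alternative run, and the call at 24 h was lost in 5 of 24, among them the one without DMSO replicate 1 (log2 0.94, limma adjusted p = 0.0757). With the block among the treated arrays, the steps from 12 to 24 h (log2 0.84, limma adjusted p = 0.00656) and from 24 to 48 h (1.04, 0.00359) also passed, which they did not without it.

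CDH19, the cadherin of the Schwann cell lineage, parted from NGFR at 96 h. It read 9.52 and 9.13 in DMSO. Over the 6 treated times, replicate 1 read 9.20, 9.98, 9.93, 9.42, 9.66 and 8.51, and replicate 2 read 9.01, 10.19, 9.87, 9.71, 9.87 and 8.56. The 96 h arrays were thus the lowest of all 14. A second CDH19 probe was above background on no array. CDH19 rose 1.97-fold from 12 to 24 h (log2 0.98, SE 0.19, limma adjusted p = 0.00414). It was 1.69-fold higher than DMSO at 24 h (limma adjusted p = 0.0126) and 1.49-fold at 48 h (0.0423), the latter lost in 14 of 24 alternatives. Without DMSO replicate 2 neither passed (log2 0.57 and 0.38), and without replicate 1 the 72 h group passed as well (0.63, 0.0270). At 96 h it was 1.73-fold lower than DMSO (log2 -0.79, limma adjusted p = 0.00709) and 1.48-fold lower than at 12 h (0.0381), and the second call was lost in 9 of 25 alternatives, with adjusted p up to 0.192. The fall from 72 to 96 h was 2.34-fold (log2 -1.23, limma adjusted p = 0.0450), was lost in 15 of 25 alternatives and stood at 0.00637 with the block among the treated arrays.

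**Figure D2:**
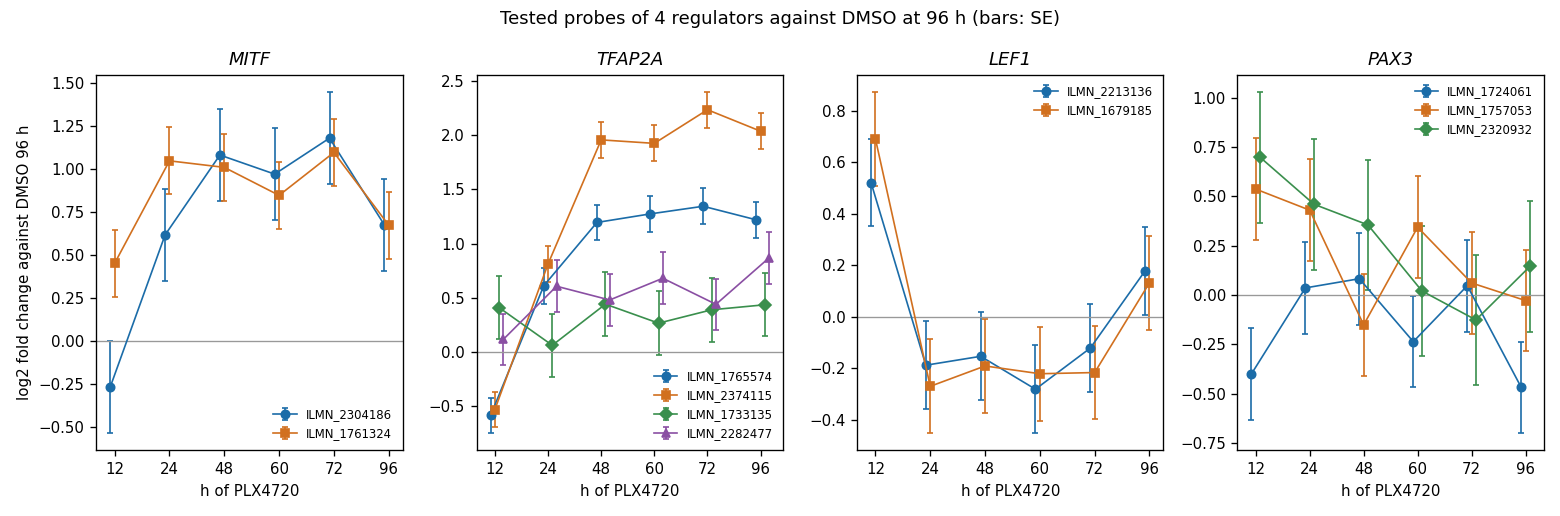
Log2 fold change against DMSO at 96 h (vertical axis) of each tested probe of MITF, TFAP2A, LEF1 and PAX3 by hours of PLX4720. Points are probes and bars the SE. The 2 bright TFAP2A probes are below 0 at 12 h and above it from 24 h.

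Counted over the 9 tested members, the number called in each comparison is set beside the share of all genes called. At 12 h against DMSO limma called 2 members, LEF1 higher and TFAP2A lower, where it called 17.3% of all genes (9% higher and 8.26% lower). All calls from 24 to 72 h were rises. They numbered 3 at 24 h, where 20.8% of genes were called and 11.5% were higher. They numbered 4 at 48 h (25.1% called, 13.9% higher), 3 at 60 h (25.2% called, 14.1% higher) and 3 at 72 h (27.8% called, 15.1% higher). At 96 h TFEB, SOX10, TFAP2A and NGFR were called higher and CDH19 lower, where 29.9% of genes were called, 16.4% higher and 13.5% lower. TFEB, called here and at 96 h against 12 h, had met the background filter only through arrays at 60 and 96 h. The median at 96 h was 0.68 over the tested members and 0.07 over all genes tested. At 96 h against 12 h MITF, TFEB, TFAP2A and NGFR were called higher and CDH19 lower, where 29% of genes were called, 15.1% higher and 14% lower. The replicate block among the treated arrays gave 7 members there, where 44.8% of genes were called.

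Successive treated times were also compared. From 12 to 24 h, MITF, TFAP2A and CDH19 rose and LEF1 fell (4 of 9, background 11%), and with the block NGFR rose as well (background 24.7%). From 24 to 48 h TFAP2A rose (1 of 9, background 5.65%), and with the block MITF and NGFR did too (background 20.7%). From 48 to 60 h and from 60 to 72 h limma called 0 of 9 members (background 0%), with 0 members, and 418 and 464 genes, at an unadjusted p under 0.05. With the block the second of these called 2 genes, which is 0.0157%, neither of them a member. From 72 to 96 h CDH19 fell (1 of 9, background 0.0471%). With the block MITF also fell (log2 -0.50, limma adjusted p = 0.0310) and TFEB rose by at least 1.27-fold (0.0374), where 18.1% of genes were called. In an F test over the 6 treated times, MITF (limma adjusted p = 0.00843), TFAP2A (6.72e-06), LEF1 (0.0142), NGFR (0.000254) and CDH19 (0.000321) differed, against 28.1% of all genes. The block added TFEB (0.0443) and PAX3 (0.0455), with a background of 56.7%.

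Of the genes known to be regulated by MITF, 18 of 19 listed had a probe and 14 were tested. At 96 h 7 rose, 1 fell and 6 did not pass, with a median of 0.68 against 0.07 over all genes. At 12 h 1 rose and 2 fell. Over all genes tested, 16.4% were higher and 13.5% lower at 96 h, and 9% higher and 8.26% lower at 12 h. PMEL, which encodes the fibril protein of the melanosome, had raw signals of 363 and 468 in DMSO. Over the 6 treated times they were 357, 373, 777, 1078, 1872 and 5445 for replicate 1 and 340, 269, 719, 1113, 1679 and 3171 for replicate 2. It rose 31.1-fold by 96 h (log2 4.96, SE 0.24, limma adjusted p = 3.61e-08), with DMSO above background on 1 of the 2 arrays. PPARGC1A, a coactivator of mitochondrial genes, rose 1.86-fold at 12 h (limma adjusted p = 0.0288) and 6.45-fold at 96 h (6.41e-06).

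TYRP1 was lower than DMSO at 12 h and higher at 96 h, as was TFAP2A. Its raw signals were 4576 and 2981 in DMSO, 751 and 547 at 12 h, and 6159 and 3878 at 96 h. It was 4.43-fold lower than DMSO at 12 h (log2 -2.15, SE 0.22, limma adjusted p = 3.02e-05) and 2.67-fold higher at 96 h (0.000400). BCL2, which encodes an inhibitor of apoptosis, was 2.29-fold lower at 12 h (limma adjusted p = 0.00587), and MET, the receptor of hepatocyte growth factor, was 2.08-fold lower at 96 h (0.00591). CATGTG was in the promoter windows of 5 of the 11 MITF-regulated genes with a window (45.5%), where 11.5% of all genes hold it. By window the shares were 27.8% and 9.42%. The list holds known targets of a factor that binds E-boxes, so these shares are a description and no independent support. Of the 5 genes with CATGTG, TYR, TYRP1, GPNMB and PPARGC1A rose at 96 h and BCL2A1 did not pass, while of the 6 without it 2 rose and 1 fell. TYR was near background, above it on 6 arrays, with mean log2 signals of 6.08 in DMSO and 6.96 at 96 h. Whether the motif bears on the rises was not tested.

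Of the lysosomal and nutrient-sensing genes known as targets of TFEB and TFE3, 20 of 22 listed had a probe and all 20 were tested. The number that rose was 3 at 12 h, 9 at 24 h, 12 at 48 h, 15 at 60 h, 14 at 72 h and 15 at 96 h. None fell at any of these times in the main comparison. The share of all genes called higher at those times was 9%, 11.5%, 13.9%, 14.1%, 15.1% and 16.4%. The median at 96 h was 0.81. With median scaling 1 rose and 1 fell at 12 h, where 387 of all 12742 genes were called higher and 1362 lower. CTSA had raw signals of 9020 and 9955 in DMSO, 8537 and 3882 at 12 h, and 28322 and 15480 at 96 h. It was 4.54-fold higher at 96 h (log2 2.18, SE 0.26, limma adjusted p = 4.53e-05), and CTSF, another cathepsin, 4.49-fold (3.64e-06). GLA, the alpha-galactosidase of the lysosome, and SQSTM1, an autophagy receptor, were already higher at 12 h, by 2.14-fold (limma adjusted p = 0.00107) and 1.62-fold (0.00858). At 96 h 7 rose with median scaling, where 752 of all 12742 genes were called higher, and 9 rose with array weights. The shares of all genes given above are those of the main setting. CACGTG stood in the windows of 8 of the 12 list genes with a window (66.7%) against 7.73% of all genes. By window the shares were 53.3% and 6.34%. This list too holds known targets of factors that bind E-boxes, so the shares are no independent support. Of the 8 genes with CACGTG, 6 rose at 96 h, and of the 4 without it, 2 rose. Whether the motif bears on these rises was not tested.

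**Figure D3:**
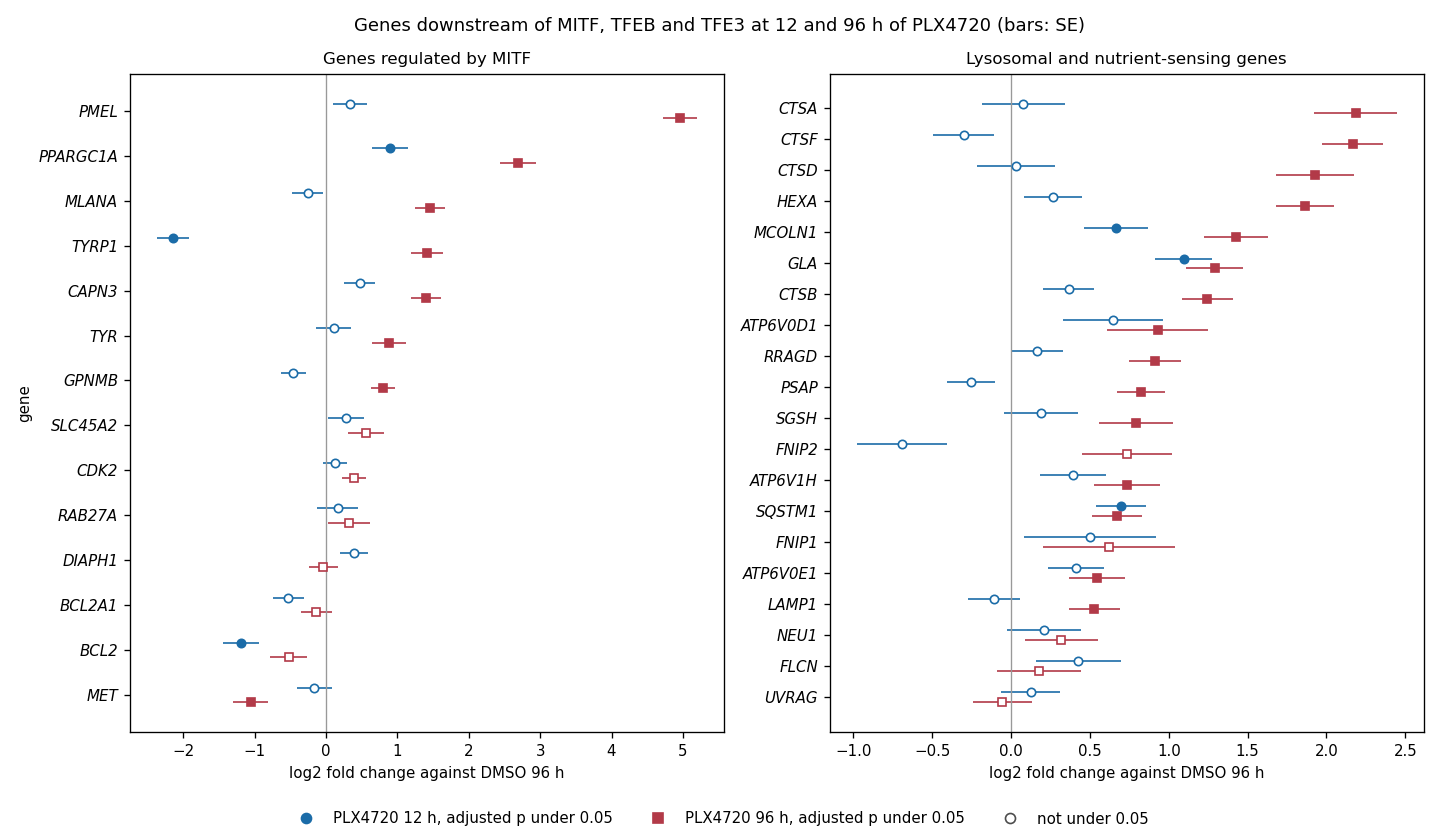
Log2 fold change against DMSO at 96 h (horizontal axis) of the tested genes regulated by MITF (left) and of lysosomal and nutrient-sensing genes (right), at 12 h (circles) and 96 h (squares) of PLX4720. Filled symbols had an adjusted p under 0.05 and bars are the SE. TYRP1 lies at -2.15 at 12 h and 1.42 at 96 h, and CTSA and CTSF lie near 2 at 96 h.

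Genes that act on MITF from upstream did not move together: of 12 tested, 5 rose and 3 fell at 96 h, and 2 rose and 2 fell at 12 h, beside 16.4% higher and 13.5% lower of all genes at 96 h and 9% and 8.26% at 12 h. EDNRB, the endothelin receptor of melanoblasts, had raw signals of 17633 and 17252 in DMSO and 5197 and 3422 at 12 h. It was 2.42-fold lower at 12 h (log2 -1.27, SE 0.16, limma adjusted p = 0.000188) and 1.79-fold higher at 96 h (0.00194). POU3F2, also called BRN2, represses MITF in invasive melanoma cells, and it was 1.96-fold lower at 12 h (limma adjusted p = 0.00278) and 1.92-fold lower at 96 h (0.00192). IRF4, a partner of MITF at the tyrosinase gene, was 1.93-fold higher at 12 h (limma adjusted p = 0.0140), and ATF4, a stress factor, 1.56-fold (0.0183). At 96 h BHLHE40 and BHLHE41, which encode helix-loop-helix repressors, rose 2.22-fold and 2.12-fold. HIF1A fell 2.06-fold (limma adjusted p = 0.0364) and USP13, a deubiquitinase that stabilises MITF, 1.92-fold (0.0205). With median scaling the split at 96 h was 2 higher and 5 lower, where 752 of all 12742 genes were called higher and 2887 lower.

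Of 23 tested genes of the neural crest and Schwann lineage other than the members, 9 rose and 7 fell at 96 h, and 2 rose and 5 fell at 12 h. All genes gave 16.4% higher and 13.5% lower at 96 h, and 9% and 8.26% at 12 h, so that the 2 rises at 12 h were near the background share. FOXD3 and SNAI2, transcription factors of the premigratory and migrating crest, rose 3.70-fold (limma adjusted p = 1.63e-05) and 1.96-fold (0.0240) at 12 h, and 2.90-fold (3.67e-05) and 3.03-fold (0.000622) at 96 h. TFAP2C, a relative of TFAP2A, had raw signals of 25645 and 27442 in DMSO, 3942 and 2992 at 12 h, and 3542 and 2868 at 96 h. It was 4.54-fold lower at 12 h (log2 -2.18, SE 0.16, limma adjusted p = 2.35e-06) and 4.11-fold lower at 96 h (1.78e-06), when TFAP2A was higher. S100B, a calcium-binding protein of Schwann cells and melanocytes, was 5.48-fold lower at 12 h (limma adjusted p = 8.29e-05) and 5.77-fold lower at 96 h (2.72e-05), with 1 of 2 arrays above background at each time. With median scaling 5 of the 23 rose and 9 fell at 96 h, where 752 of all 12742 genes were called higher and 2887 lower.

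Of 13 tested genes of the undifferentiated melanoma state, which is often set against the MITF-high state, 2 rose and 6 fell at 96 h, and none rose and 4 fell at 12 h, where all genes gave 16.4% higher and 13.5% lower at 96 h and 9% and 8.26% at 12 h. CCN2, a matrix-associated growth factor gene, had raw signals of 9977 and 9659 in DMSO, 4520 and 3544 at 12 h, and 758 and 579 at 96 h. It was 8.69-fold lower at 96 h (log2 -3.12, SE 0.16, limma adjusted p = 4.24e-08). NT5E, the surface nucleotidase CD73, was 5.93-fold lower (limma adjusted p = 2.67e-05). FOSL1, an AP-1 subunit, and CCN1 were 2.29-fold and 1.88-fold lower at 12 h. JUN, another AP-1 subunit, rose 2.65-fold at 96 h (limma adjusted p = 0.000142) and SMAD3, an effector of TGF-beta, 1.52-fold (0.0184). Of the fibroblast markers given above, the mean levels of COL1A2 and LUM were lower at 96 h than in DMSO and that of DCN was higher, and PDGFRB is on both lists.

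**Figure D4:**
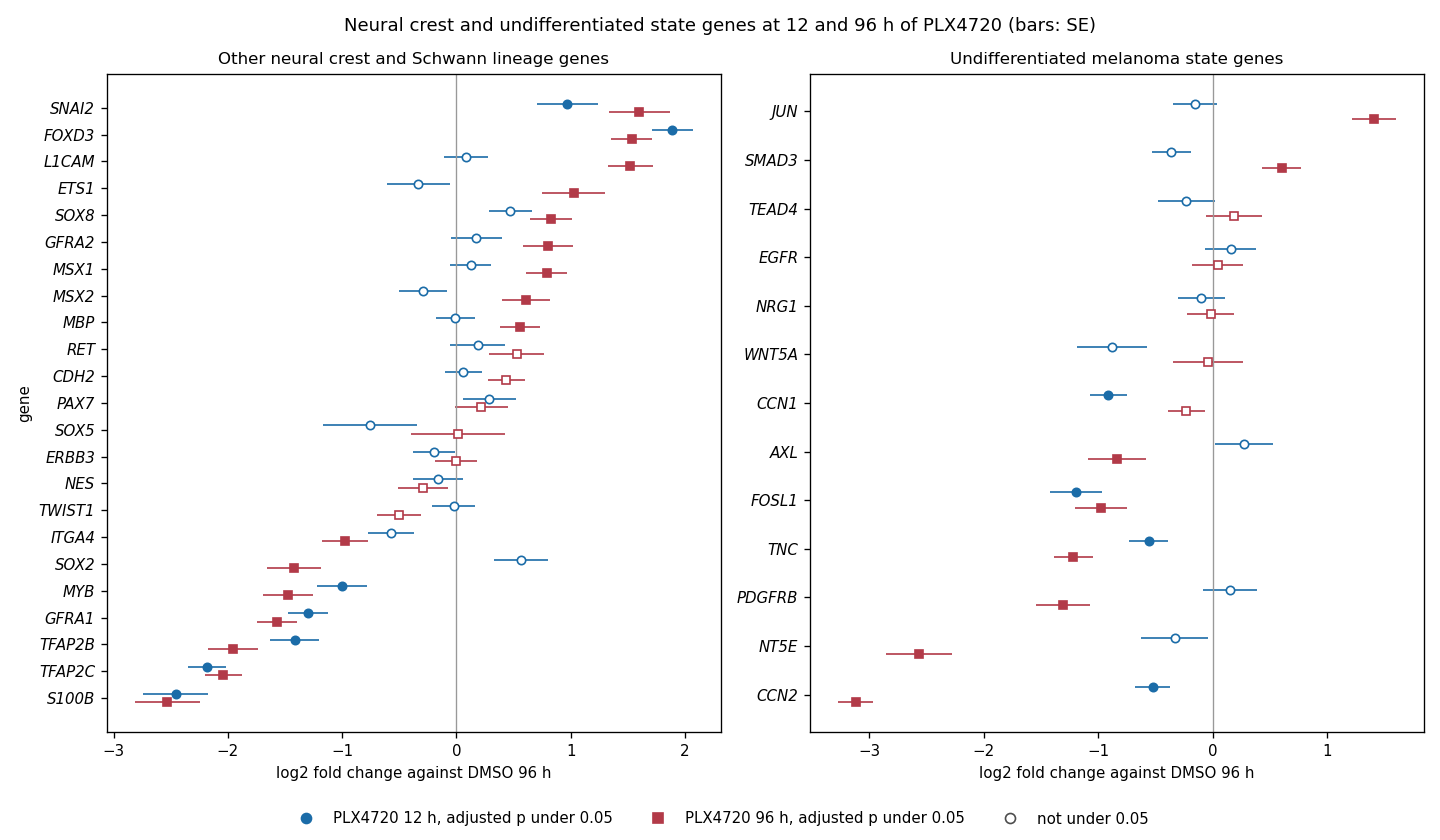
Log2 fold change against DMSO at 96 h (horizontal axis) of the tested neural crest and Schwann lineage genes (left) and undifferentiated state genes (right), at 12 h (circles) and 96 h (squares). Filled symbols had an adjusted p under 0.05 and bars are the SE. S100B and TFAP2C lie below -2 at both times, and CCN2 is at -3.12 at 96 h.

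Of 14 tested genes around LEF1 in the Wnt pathway, 3 rose and 5 fell at 96 h, and 1 rose and 3 fell at 12 h. The shares of all genes were 16.4% higher and 13.5% lower at 96 h, and 9% and 8.26% at 12 h, and 1 rise in 14 was near the background. AXIN2, a feedback inhibitor that Wnt signalling induces, was 1.88-fold higher at 96 h (limma adjusted p = 0.00274), as was TLE1, a corepressor that binds LEF1, at 1.89-fold (0.00370). TCF7L2, a relative of LEF1, was 2.21-fold lower (limma adjusted p = 0.0140). RNF43, a ubiquitin ligase that removes Wnt receptors, was not above background at either time and was at least 1.78-fold lower at 12 h (limma adjusted p = 0.00608) and at least 1.67-fold lower at 96 h (0.00462). At 12 h TLE4 was 2.24-fold lower (limma adjusted p = 0.000618) and TLE3 at least 1.35-fold higher (0.0114). With array weights the split at 96 h was 3 higher and 1 lower, and the shares of all genes given above are not those of that setting.

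The ligands and partners of NGFR were mostly dim, with 6 of 14 listed genes tested, of which 1 rose and 2 fell at 96 h (16.4% and 13.5% of all genes) and 1 rose at 12 h (9%). BDNF, a neurotrophin that binds NGFR, had raw signals of 1063 and 564 in DMSO, 567 and 501 at 12 h, and 1236 and 1061 at 96 h. It was 3.53-fold higher at 96 h (log2 1.82, SE 0.30, limma adjusted p = 0.000616). PRDM4, which encodes a zinc finger protein that binds the receptor, rose 1.87-fold at 12 h (limma adjusted p = 0.0145). At 96 h BEX3, an adaptor of the receptor's cytoplasmic tail, was 1.60-fold lower (limma adjusted p = 0.0125) and NDN at least 1.06-fold lower (0.00944).

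Profiles over the 14 arrays were compared by Pearson correlation as a description. The 14 arrays hold 7 groups of 2, so that the points are not independent. TFAP2A and NGFR gave 0.904, MITF and TFAP2A 0.868, MITF and NGFR 0.783, LEF1 and TFAP2A -0.686, and NGFR and CDH19 -0.022. The genes closest to TFAP2A were ADSS1 (0.990), MLPH (0.988) and PCSK5 (0.987), and those closest to NGFR were CTSA (0.988), SLC6A10P (0.987) and HLA-H (0.983). MLPH encodes melanophilin, which links melanosomes to a myosin motor. MITF lay closest to DOCK1 (0.986), ATP7A (0.983), the copper pump that supplies tyrosinase, and LRBA (0.977). LEF1 lay closest to LSM12 (0.925), ADRM1 (0.916) and ERCC6 (0.912), and CDH19 to CASC15 (0.906), PLEKHF2 (0.899) and ZNF462 (0.897).

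The DMSO arrays entered the members unequally. MITF differed between them by 0.98, which is 1.98-fold, against -0.15 to 0.32 between the replicates of treated groups. For NGFR and TFAP2A at 96 h the call was the same with either DMSO array left out.

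**Figure D5:**
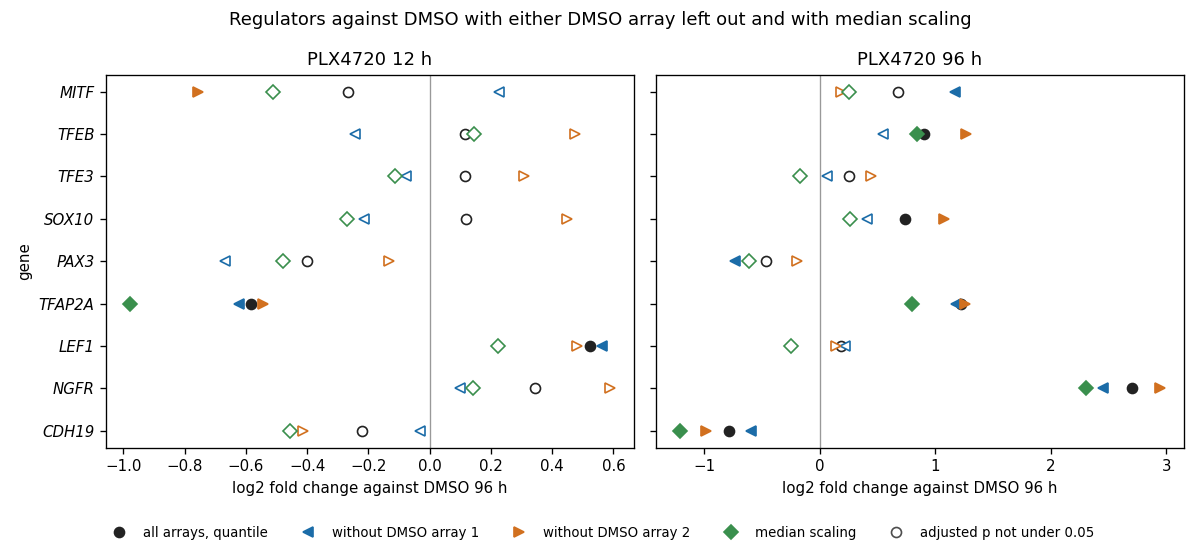
Log2 fold change against DMSO at 96 h (horizontal axis) of the 9 tested regulators at 12 h (left) and 96 h (right) of PLX4720, with all arrays, without either DMSO array and with median scaling. Filled symbols had an adjusted p under 0.05. MITF at 96 h lies at 1.17 without DMSO array 1 and 0.18 without array 2, and NGFR lies above 2 in all 4 settings.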

How the data were processed

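Transcripts were measured on 14 one-colour Illumina arrays. The title of each array gave its group, and its description gave the replicate number. Cells were lysed in TRI Reagent and the RNA was labelled as biotinylated cRNA, per the labels' protocols. The deposited unnormalized table held signal intensity on a linear scale for 47322 probes, per the file headers and the values. Its 28 further columns were empty. The deposited normalized table held quantile-normalized log2 values with a median of 8.41 on each array and served as an alternative. The software that summarised the scans is not given in the sources used here.

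Intensities were corrected with limma's normexp (saddle-point fit, offset 16), put on the log2 scale and quantile normalized. The threshold for background on an array was its signal mode plus the 1% upper tail of a normal curve whose SD came from signals under the mode. The platform annotation named 1 gene for 30113 probes, several for 8 and none for 17201, and 30074 were matched by gene ID to RefSeq symbols. The brightest probe of each gene above background on at least 2 arrays was fitted over all 7 groups (lmFit and eBayes, limma 3.58.1, R 4.3.3, residual degrees of freedom 7, prior 5.86). Two-sided tests were used, with Benjamini-Hochberg adjustment over 12742 genes within each comparison at 0.05. All probes, 22961 of them above background, were fitted separately. A group with no array above background gives a bound on the fold, and the fold is then written as at least that size. Precision is limited by there being 2 arrays a group. The code was tested on simulated data.

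The members and gene lists were chosen with earlier results of these data known. All members were named whatever their result. Other named genes were, in each list, the 2 that rose most and the 2 that fell most among those called at 12 h and 96 h against DMSO, and the 3 genes that correlated best with each member called over the 7 groups. TYRP1, EDNRB, POU3F2, GPNMB and other genes given at a further time or for their promoter, and genes named through marker lists, were added after their values were seen. BRAF and DCT were not analysed here.

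Deviations from group means correlated between same-numbered arrays in 15 of 15 pairs of PLX4720 groups (0.152 to 0.414), and above 0.1 in 2 of 6 pairs with DMSO (-0.203 to 0.417). The numbers thus pair the treated arrays, and a blocked fit on those arrays, added after seeing the data, is given where it changes a call. Promoter windows came from a RefSeq table for GRCh38.p14 and motifs were searched on both strands. Alternatives changed the background correction, scaling, starting table, filter, probe choice, error model and block, and left out each array in turn.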

Additional observations from a re-analysis of the deposited data

Results flagged for a closer look

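For 5 members the difference from DMSO at 96 h was not the same at 12 h and at 96 h of PLX4720. The shared DMSO arrays cancel, so the test is the contrast of the 2 treated times. Hours in culture and hours of drug cannot be told apart in it. NGFR moved from 0.34 at 12 h to 2.70 at 96 h, a difference of 2.35 on the log2 scale (SE 0.30, limma adjusted p = 6.63e-05). TFAP2A moved from -0.58 to 1.22, a difference of 1.80 (SE 0.16, 2.55e-06). MITF moved from -0.27 to 0.68, a difference of 0.94 (SE 0.26, 0.0165). TFEB was called as well (limma adjusted p = 0.0369), but no 12 h or DMSO array was above background. Its fitted difference of 0.79 is thus no measured size, and the fold is given as at least 1.33. Its probe met the background filter only through arrays at 60 and 96 h. CDH19 moved from -0.22 to -0.79, a difference of -0.57 (SE 0.19, 0.0381), and this call was lost in 9 of 25 alternatives. No group had enough arrays to test for a single outlying array.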

How the results depend on the processing

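The calls of single members that held in every alternative run were NGFR and TFAP2A at 48, 60, 72 and 96 h against DMSO and at 96 h against 12 h, and TFAP2A at 24 h against 12 h. Direction reversed in 36 values, none called in either setting. With median scaling the reversed log2 values were -0.13 at 60 h for CDH19, -0.25 at 96 h for LEF1, -0.0878 at 24 h, -0.0236 at 48 h and -0.12 at 72 h for PAX3, -0.27 at 12 h and -0.0966 at 48 h for SOX10, and -0.11 at 12 h, -0.0968 at 24 h, -0.13 at 60 h, -0.17 at 96 h and -0.0568 at 96 h against 12 h for TFE3. With the mean of a gene's probes the reversed log2 values were 0.0936 at 12 h for MITF, and 0.28 at 12 h, 0.0421 at 60 h and -0.00649 at 72 h for PAX3. The ranges that crossed 0 with an array left out, with their lowest and highest values, follow. For MITF they ran from -0.76 to 0.23 at 12 h. For PAX3 they ran from -0.23 to 0.30 at 24 h, -0.18 to 0.35 at 48 h, -0.50 to 0.0295 at 60 h, -0.22 to 0.31 at 72 h and -0.38 to 0.25 at 96 h against 12 h. For SOX10 they ran from -0.21 to 0.45 at 12 h. For TFE3 they ran from -0.0764 to 0.31 at 12 h, -0.0348 to 0.35 at 24 h, -0.37 to 0.15 at 48 h, -0.27 to 0.11 at 72 h and -0.0179 to 0.30 at 96 h against 12 h. For TFEB they ran from -0.24 to 0.47 at 12 h, -0.11 to 0.61 at 24 h and -0.14 to 0.57 at 72 h. The causes were not tested.

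Counts of called members depended on the setting. At 12 h the 2 became 1 with median scaling or the mean of probes, 0 with array weights or no filter (limma), and 0 to 2 with an array left out. At 24 h the 3 became 0 with median scaling or array weights and 0 to 3 with an array left out, and at 48 h the 4 became 2 with median scaling and 2 to 4 with an array left out. At 96 h the 5 became 2 with array weights. At 96 h against 12 h the 5 became 2 with median scaling and 2 to 6 with an array left out, and among the treated times the 5 became 3 with median scaling and 3 to 5. From 12 to 24 h the 4 became 2 with median scaling and 1 to 4. From 24 to 48 h the 1 became 0 with median scaling, no filter or the mean of probes, 2 with an offset of 50, no background correction, the deposited normalized table, array weights, the filter of 7 arrays, the trended robust fit or the replicate block, 3 with the block on treated arrays, and 0 to 2 with an array left out. From 72 to 96 h the 1 became 0 with median scaling, no filter or the mean of probes, 3 with the block on treated arrays, and 0 to 1. With an array left out, the remaining array of its group is assumed to vary like the other groups.

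With the replicate block on all arrays, the adjusted p of MITF at 96 h against DMSO went from 0.0707 to 0.0344 and the count there from 5 to 6. Median scaling moved the median of all genes at 96 h from 0.07 to -0.27, at 12 h from 0.06 to -0.14 and at 96 h against 12 h from 0.01 to -0.12. The genes called higher and lower went from 1147 and 1052 to 387 and 1362 at 12 h, from 1466 and 1186 to 550 and 1605 at 24 h, from 1774 and 1424 to 762 and 1965 at 48 h, from 1794 and 1420 to 647 and 2332 at 60 h, from 1923 and 1613 to 763 and 2401 at 72 h, from 2095 and 1720 to 752 and 2887 at 96 h, and from 1918 and 1781 to 1122 and 1733 at 96 h against 12 h. Signal over background limits TFEB, PAX3 and SOX9.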
